A study of Mus musculus with 14 samples.

Results

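To describe the lymphocytes of the liver under erythrodiol, 9 marker genes were chosen by symbol: Cd3d, Cd3e, Cd3g, Cd4 and Cd8a for T cells, Cd79a, Cd79b and Ms4a1 for B cells, and Nkg7 for natural killer (NK) and other cytotoxic cells. All 9 were present among the 17552 genes of the deposited table. The samples were livers of male mice of strain C57BL/6 by the labels (C57BL/6J in the methods), labelled Apoe-deficient and aged 8 weeks, all on a Western diet. Both groups shared this genotype, sex and diet. The control group (7 libraries) received the diet alone, and the other group (7 libraries) received it enriched with erythrodiol, a triterpene of the olive, at 10 mg/kg. The labels give 8 weeks of diet, whereas the methods of the study give a longer time. As the diet alone lasted 8 weeks or longer, the labelled age is taken as that before the diet and not at sampling. Each library was made from liver RNA pooled from a few mice, so single animals were not measured.

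The gene table gave for each group a single expected count per gene, summed over its 7 libraries. Hence each marker had 1 value per group and no replicates, no test between the diets could be made, and every interval given here is a 95% counting interval that leaves out the spread between mice, pools and libraries. The sums were 122889032 counts in control and 124686047 in erythrodiol. Single libraries held from 34856340 to 55244294 clean reads in control and from 47669656 to 48058606 in erythrodiol. By the read pairs mapped to genes, 1 library made up from 9.12% to 17.3% of the control sum and from 13.9% to 14.6% of the erythrodiol sum. The hepatocyte gene Alb was by far the most abundant tissue marker, at 38801 and 37341 CPM (the count relative to the group total, on the usual CPM scale) per kilobase of gene length. Apoe, the gene named as deficient, still had 9403 counts in control and 8293 in erythrodiol, and the table does not show from which part of the gene they came.

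T cells recognise peptides through the T cell receptor, which signals by the CD3 chains encoded by Cd3d, Cd3e and Cd3g, and the coreceptors CD4 and CD8 divide them into helper and cytotoxic cells. B cells bind antigen through surface immunoglobulin, which signals by the chains encoded by Cd79a and Cd79b, and carry CD20, the product of Ms4a1. NK cells and cytotoxic T cells kill by releasing granules, and Nkg7 encodes a protein of the membrane of these granules. The normal liver holds all these cells in its sinusoids and portal tracts, with many NK and T cells. Some dendritic cells also express Cd4 or Cd8a.

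The 3 CD3 genes lie together on chromosome 9 of GRCm38. Cd3g occupies 44969572 to 44980431 on the minus strand, Cd3d 44981769 to 44987052 on the plus strand and Cd3e 44998735 to 45009663 on the minus strand. The starts of Cd3g and Cd3d thus face away from each other with 1338 bases between them. The 250 bases before the start of each CD3 gene, and of Cd79a for a B cell gene, are shown because the 3 CD3 genes are neighbours whose products form 1 complex. The sequences are those of RefSeq on GRCm38.p6, counted from the start of 1 transcript per gene, which for Cd3d and Cd3e lies within the limits of the gene given above, and run 5′ to 3′ on the strand of the gene. Capitals mark matches to an Ets core (ACTTCC) or to the E-box of E proteins (CAGGTG), searched on both strands, and no matches overlapped.
Cd3g, chr9:44980432-44980681, minus strand: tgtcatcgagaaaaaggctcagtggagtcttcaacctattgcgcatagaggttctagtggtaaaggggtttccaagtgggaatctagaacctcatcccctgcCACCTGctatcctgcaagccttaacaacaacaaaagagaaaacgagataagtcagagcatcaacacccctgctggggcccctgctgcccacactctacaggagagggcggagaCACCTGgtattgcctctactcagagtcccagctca
Cd3d, chr9:44981536-44981785, plus strand: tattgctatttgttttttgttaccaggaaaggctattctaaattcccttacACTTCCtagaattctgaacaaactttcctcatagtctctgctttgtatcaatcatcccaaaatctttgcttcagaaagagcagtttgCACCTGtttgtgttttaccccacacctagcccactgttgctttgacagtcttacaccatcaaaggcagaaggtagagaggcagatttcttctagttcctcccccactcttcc
Cd3e, chr9:45009612-45009861, minus strand: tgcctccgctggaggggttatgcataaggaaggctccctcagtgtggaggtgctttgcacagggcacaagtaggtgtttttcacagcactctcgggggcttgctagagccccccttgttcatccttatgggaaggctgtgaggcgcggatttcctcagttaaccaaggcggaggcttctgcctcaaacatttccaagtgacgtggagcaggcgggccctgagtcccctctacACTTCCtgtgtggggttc
Cd79a, chr7:24897247-24897496, plus strand: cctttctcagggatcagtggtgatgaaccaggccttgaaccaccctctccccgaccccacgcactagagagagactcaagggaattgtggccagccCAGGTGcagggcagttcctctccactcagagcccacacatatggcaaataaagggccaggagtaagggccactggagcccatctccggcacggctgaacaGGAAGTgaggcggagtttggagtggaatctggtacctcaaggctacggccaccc

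Promoters could be matched for 6 of the 9 markers (Cd3d, Cd3e, Cd3g, Cd8a, Cd79a and Nkg7). The E-box was found in 3 of them, Cd3g, Cd3d and Cd79a, and in 17.2% of all 32851 promoter windows of the same length. Cd3g held it at 148 and at 35 bases before the start. The Ets core was found in 3 of the 6, Cd3d, Cd3e and Cd79a, against 19.7% of all windows. In Cd3e it lay 18 bases before the start and in Cd79a 54 bases. The RUNX letters TGTGGT were present in 1 of the 6, Nkg7 (14.05% of all windows), and the octamer ATTTGCAT (1.60%), TATAAA (12.4%) and CCCNNGGG, a form of the site of the B cell factor EBF (11.8%), in 0 of the 6. These counts describe letters in a short window and not binding.

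The other markers lie apart. On GRCm38, Cd4 spans 124864693 to 124888247 and Cd8a 71373427 to 71379171 on chromosome 6, Cd79a 24897497 to 24901858 and Nkg7 43437138 to 43438246 on chromosome 7, Cd79b 106311341 to 106314562 on chromosome 11 and Ms4a1 11249679 to 11266149 on chromosome 19. Of the 9 genes, 1 had a new coding transcript in the deposited annotation, namely Cd4, against 4995 of the 17552 genes (28.5%). This Cd4 transcript had 9 exons and 3471 bases, and 6 of its exons matched annotated Cd4 exons at both ends. Its last exon, from 124864693 to 124866275, shared 1 end with the annotation. Cd3e shared 135 exonic bases with Gm48719, an antisense gene, and reads of this stretch cannot be assigned to a strand from the table.

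In both groups all lymphocyte markers were scarce. On the scale of CPM per kilobase of gene length, which allows genes to be compared, the control levels ran from 0.280 for Cd8a to 1.52 for Cd79a, and Alb was at 38801. By these levels each marker stood between the lowest 23.7% and the lowest 39.9% of genes above 0 in both groups. Divided over 7 libraries, Cd3e came to 8.43 counts per library in control and Cd79a to 35.4.

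The order of the levels in control was Cd79a (1.52), Cd79b (1.35), Nkg7 (1.16), Cd3g (1.03), Cd4 (0.539), Ms4a1 (0.502), Cd3d (0.428), Cd3e (0.334) and Cd8a (0.280), on this same scale. Only Cd3g and Cd4 were neighbours whose counting intervals did not overlap, so that the genes formed a higher set of 4 and a lower set of 5. With erythrodiol Cd79a stayed first (1.55) and Cd8a last (0.248), on the same scale. There the intervals of Cd79b (1.24) and Cd3g (0.745), and those of Cd4 (0.596) and Cd3e (0.380), did not overlap, and all other neighbours did. The 3 CD3 chains, which are parts of the same receptor, differed in level, with Cd3g at 1.03 (0.857 to 1.22) and Cd3e at 0.334 (0.255 to 0.431) in control.

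**Figure D1:**
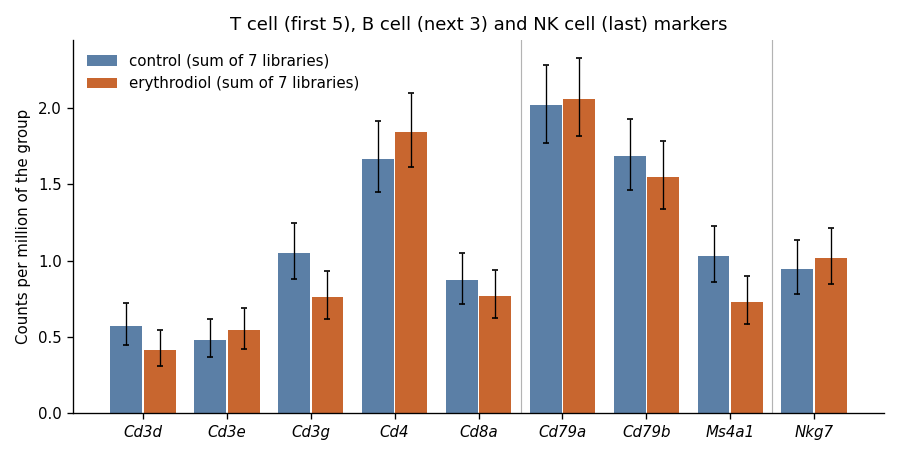
CPM (y axis) for the 9 lymphocyte markers (x axis) in control and erythrodiol, each bar being the sum of 7 libraries and each error bar its 95% counting interval. The bars of a gene lie close together, and the widest gaps are those of Cd3g (1.05 and 0.762) and Ms4a1 (1.03 and 0.730).

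Between the diets, scaled by the total of each group, the summed markers of T and B cells differed by less than counting error. The 5 T cell markers together had 570 counts in control and 541 with erythrodiol, which is 4.64 and 4.34 CPM and a ratio of 0.935 (0.830 to 1.05). The 3 B cell markers together had 582 and 541 counts, 4.74 and 4.34 CPM, and a ratio of 0.916 (0.813 to 1.03). All 9 markers together had 1268 and 1209 counts and a ratio of 0.940 (0.868 to 1.02). Each interval holds 1 on this scale. Relative to the median gene, described further on, the log2 ratios were -0.26 (-0.43 to -0.086) for T cell markers and -0.29 (-0.46 to -0.12) for B cell markers, and these intervals left out 0. Relative to genes of like length, also described further on, they were -0.18 and -0.14. With the intervals shifted alike, that of the T cell markers just left out 0 there and that of the B cell markers held it. In bulk liver, fewer lymphocytes and less of these RNAs per lymphocyte cannot be told apart.

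Of the 9 markers, 4 were higher and 5 lower with erythrodiol, and 0 were at least 1.5-fold higher (6.2% of the 16473 genes above 0 in both groups) or at least 1.5-fold lower (7.01% of them). At least 2-fold higher or lower were 0 of the 9, against 2.07% and 3.16%. The counting interval left out 1 for 2 of the 9, Cd3g and Ms4a1, both lower, against 14.9% of those genes in that direction and 44.8% in the other. Among the 1747 genes whose total count lay between the lowest and the highest of the markers (122 and 505), the shares were 13.2% lower and 17.7% higher by the interval, and 5.84% lower and 6.53% higher by the 1.5-fold limit. A ratio outside counting error was thus common in this table, also at the depth of these markers.

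Among the CD3 chains, Cd3g had 129 counts in control and 95 with erythrodiol, a log2 ratio of -0.46 and a ratio of 0.726 (0.551 to 0.953). Cd3d, its neighbour on the chromosome, had 70 and 52 counts, a log2 ratio of -0.45 and a ratio of 0.732 (0.501 to 1.06). Cd3e had 59 and 68 counts, a log2 ratio of 0.18 and a ratio of 1.14 (0.790 to 1.64). Of these chains, which enter the same complex, only Cd3g had an interval that left out 1. The ratio of Cd3g to Cd3e counts within a group, which does not depend on the scaling, was 2.19 in control and 1.40 with erythrodiol, and the ratio of these was 0.639 (0.403 to 1.01). That of Cd3d to Cd3g was 0.543 and 0.547. A difference between the diets in the balance of the CD3 chains was thus not detectable at this depth. The 3 chains together had 258 and 215 counts and a ratio of 0.821 (0.682 to 0.988).

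The coreceptors went in opposite directions within counting error. Cd4, of helper T cells, had 205 counts in control and 230 with erythrodiol, a ratio of 1.11 (0.912 to 1.34). Cd8a, of cytotoxic T cells, had 107 and 96 counts, a ratio of 0.884 (0.664 to 1.18). The ratio of Cd4 to Cd8a counts was 1.92 in control and 2.40 with erythrodiol, 1.25 times as high (0.883 to 1.77).

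The signalling chains of the B cell receptor were close between the groups. Cd79a had 248 counts in control and 257 with erythrodiol, a ratio of 1.02 (0.854 to 1.22), and Cd79b had 207 and 193 counts, a ratio of 0.919 (0.751 to 1.12). Ms4a1, which encodes the B cell membrane protein CD20, had 127 and 91 counts, the lowest ratio of the 9 at 0.706 (0.534 to 0.932), a log2 ratio of -0.50. Counts of Ms4a1 relative to Cd79a were 0.512 in control and 0.354 with erythrodiol, and the ratio of these was 0.691 (0.495 to 0.965), whereas relative to Cd79b it was 0.769 (0.543 to 1.09). B to T cell markers stood at 1.02 in control and 1.00 with erythrodiol, a ratio of 0.979 (0.827 to 1.16). Nkg7 had 116 counts in control and 127 with erythrodiol, a ratio of 1.08 (0.832 to 1.40).

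**Figure D2:**
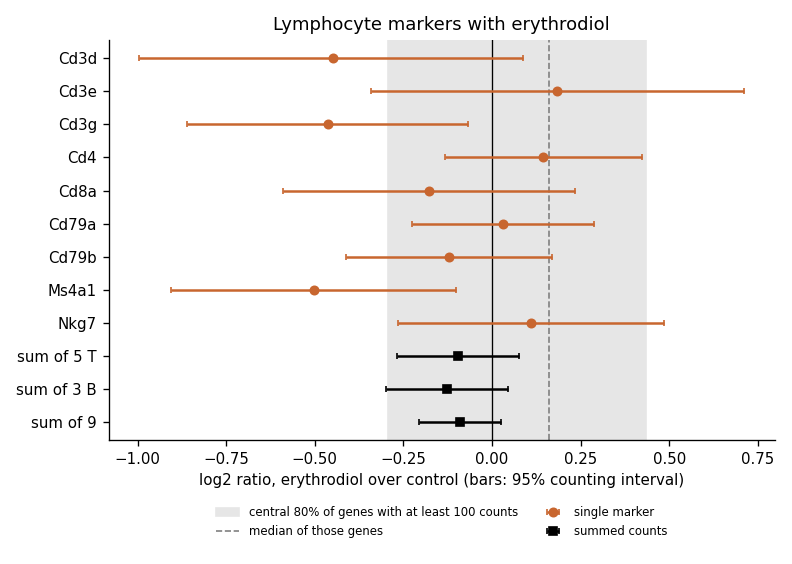
log2 ratio of erythrodiol over control, scaled by the group totals (x axis), for each marker (circles) and for summed counts (squares), with 95% counting intervals. The grey band holds the central 80% of the 13291 genes with at least 100 counts and the dashed line is their median, 0.16. The intervals of Cd3g and Ms4a1 lie below 0, and those of the sums hold 0.

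The zero point matters for these small differences. Among the 13291 genes whose counts over both groups reached 100, the median log2 ratio was 0.16, so that the typical gene was higher with erythrodiol on the scale of group totals. The median of the 9 markers was -0.12. Relative to the median gene, the log2 ratios were -0.66 for Ms4a1, -0.62 for Cd3g and -0.61 for Cd3d, so that 3 of the 9 were at least 1.5-fold lower, against 6.16% of the 13291 genes, and 0 were higher, against 0.865%. The intervals of the same 3 left out 1, against 32.5% of these genes in that direction and 33.0% in the other. On this scale the 9 markers together had a log2 ratio of -0.25 (-0.37 to -0.14), while the unshifted value was -0.090 with a counting interval from -0.20 to 0.025. The ratio was also higher in longer genes, from a median of -0.18 in the shortest of 10 length classes to 0.33 in the longest. Relative to genes of like length, 1 of the 9 was at least 1.5-fold lower, Ms4a1 at -0.61, against 3.51% of the genes, and 0 were higher, against 1.02%. Its interval was the only 1 of the 9 to leave out 1 there, against 31.1% of the genes in that direction and 31.2% in the other. Nkg7, the shortest gene with 813 bases, was at 0.34 on that scale, Cd3g at -0.36, Cd3d at -0.44 and the 9 markers together at -0.11. Over 6 scalings, 5 markers were lower in each (Cd3d, Cd3g, Cd8a, Cd79b and Ms4a1), 1 was higher in each (Cd3e, from 0.022 to 0.25) and 3 had either sign (Cd4, Cd79a and Nkg7).

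**Figure D3:**
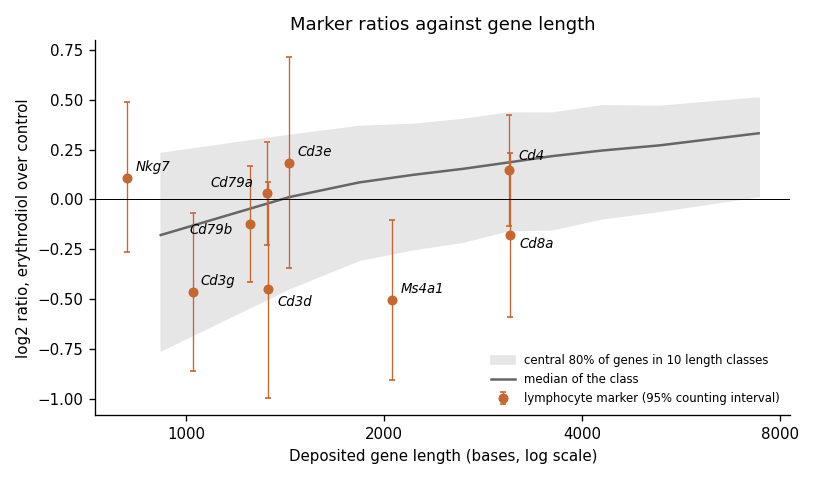
log2 ratio of erythrodiol over control (y axis) against deposited gene length in bases (x axis, log scale) for the 9 markers with 95% counting intervals, over the median and the central 80% of genes with at least 100 counts in 10 length classes. The class medians go from -0.18 to 0.33, and Nkg7 lies above the line. Cd8a at -0.18 and Ms4a1 at -0.50 lie below the band, and Cd3d at -0.45 lies near its lower edge.

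Other genes of the same cells were taken from 7 lists with 109 genes in all, and their numbers past 1.5-fold are to be read against the 6.2% higher and 7.01% lower of all genes. In the list of T cell receptor signalling, 3 of 21 genes were at least 1.5-fold higher and 1 lower, with a median log2 ratio of 0.087. These were Cd28, a costimulatory receptor (28 and 59 counts, ratio 2.08, 1.30 to 3.38), Ubash3a (12 and 23), Trat1 (3 and 14, ratio 4.60, 1.28 to 25.0) and, lower, Lef1 (32 and 19), all named after their values were seen and all with under 100 counts. Of the 14 genes of this list with at least 100 counts, 0 passed in either direction, against 2.55% and 3.14% of the genes at that depth. The kinase gene Zap70, which acts next to the CD3 chains, had 630 and 495 counts (ratio 0.774, 0.687 to 0.873). Themis, of T cell development, had 734 and 561 counts (0.753, 0.674 to 0.842). The transcription factor gene Tcf7 had 730 and 902 counts (1.22, 1.10 to 1.34), and Cd27 had 43 and 59. In CPM per kilobase, Zap70 was at 3.63 and Tcf7 at 2.24 in control, above every CD3 chain, and which cells these reads came from was not tested.

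For helper and regulatory T cells, 1 of 11 genes above 0 in both groups was at least 1.5-fold higher, Cd40lg with 2 and 8 counts (ratio 3.94, 0.787 to 38.1), which was named after its values were seen, and 0 were lower. The median log2 ratio was 0.17. Icos, a costimulatory receptor, had 310 and 276 counts, Tnfrsf18 148 and 163, and Il2ra, the receptor chain that marks regulatory T cells, 77.1 and 112 (ratio 1.43, 1.06 to 1.94). Relative to genes of like length, described above, Il2ra was at a log2 ratio of 0.26. Foxp3, also of regulatory T cells, had 22.0 and 23.5 counts (ratio 1.05, 0.549 to 1.94). Ctla4 had 7 and 5 (0.704, 0.176 to 2.58), and both were named after their values were seen.

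In the list of the B lineage, 2 of 19 genes were at least 1.5-fold higher and 0 lower, with a median log2 ratio of 0.20. Pax5, the factor that keeps B cell identity, had 73 and 114 counts (ratio 1.54, 1.14 to 2.09), and Vpreb3, named after its values were seen, had 9 and 18. Cd37, a tetraspanin, had 889 and 898 counts, Blnk, an adaptor of the B cell receptor, 663 and 766, and Cd72, an inhibitory coreceptor, 773 and 583 (0.744, 0.666 to 0.829). Cxcr5, which guides B cells to follicles, had 52 and 74 counts, and the kinase gene Blk 74 and 53 (0.706, 0.487 to 1.02). Pax5 and Ms4a1, both genes of B cells, thus stood on opposite sides of 1. They are, however, the highest ratio of this list with at least 100 counts and the lowest of the 9 markers. Relative to genes of like length their log2 ratios were 0.38 and -0.61, that of Pax5 then being below the 1.5-fold limit. Of the 8 genes of plasma cells, 7 were above 0 in both groups, with 1 at least 1.5-fold higher, 0 lower and a median of -0.042. Derl3, of the endoplasmic reticulum, was the higher one, with 773 and 1254 counts (1.60, 1.46 to 1.75). Jchain, which joins the immunoglobulins that plasma cells secrete, had 390 and 314 counts (0.794, 0.682 to 0.923), and the factor gene Irf4 had 98 and 89. Xbp1 with 26701 and 30420 counts and Sdc1 with 20963 and 20779 are also made by hepatocytes.

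NK and cytotoxic genes were 0 of 24 at least 1.5-fold higher and 5 lower, with a median log2 ratio of -0.11. The 5 were Klrc1, Klrg1, Klra4, Klra8 and Gzmk, of which Klrc1 had at least 100 counts (107 and 68.7, ratio 0.632, 0.463 to 0.868) and the others, named after their values were seen, 4 to 26 counts in a group. The Klra and Klrc genes have near copies that can share reads. Klrk1, which encodes the activating receptor NKG2D, had 478 and 345 counts (0.711, 0.618 to 0.819). Among receptors that mark NK cells, also named after their values were seen, Ncr1 had 59 and 56 counts, Klrb1c 118 and 99 and Klrd1 144 and 104 (0.712, 0.548 to 0.922). Of the 24 genes, 10 had a log2 ratio above 0 and 14 below it, and the interval of Nkg7, which is not in this list, held 1. The chemokine gene Ccl5 had 477 and 447 counts, the cytokine receptor chain Il2rb 445 and 469, Ctsw of cytotoxic granules 95 and 115, and the factor gene Tbx21 46 and 60.

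Of the 13 genes of lymphocyte homing, 12 were above 0 in both groups, with a median log2 ratio of -0.17. Of these, 0 were at least 1.5-fold higher and 1 lower. This was Cxcr6, a chemokine receptor of liver-resident lymphocytes (150 and 98 counts, 0.644, 0.494 to 0.836). Ccl19, left out of the ratios and named after its values were seen, had 6.14 counts in control and 0 with erythrodiol. Cxcl9, which draws activated T cells, had 2700 and 2154 counts (0.786, 0.743 to 0.832), Itgal 3755 and 3314, Itga4 1597 and 1750, and S1pr1, which endothelium also expresses, 5944 and 7254. In the list of all leukocytes, 0 of 12 were at least 1.5-fold higher and 2 lower, with a median of -0.27. These were Cd53 (3882 and 2483 counts, 0.630, 0.599 to 0.663) and Coro1a (1921 and 1299, 0.666, 0.621 to 0.715). Ptprc, which encodes the leukocyte antigen CD45, had 3339 and 2813 counts (0.830, 0.789 to 0.873). Lcp1 had 15890 and 19515 counts, Laptm5 10144 and 9658, and Ptpn22 241 and 281.

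Markers of other cells were compared with the lymphocyte markers within each group, where the scaling cancels. The trend with gene length described above does not cancel there, and these relative values were not corrected for it. For these lists too, numbers past 1.5-fold are to be read against 6.2% higher and 7.01% lower of all genes above 0 in both groups. Among genes with at least 100 counts the shares were 2.55% and 3.14%. The list of Kupffer cells, the resident macrophages of the liver, had a median log2 ratio of -0.54, with 6 of 12 genes at least 1.5-fold lower and 0 higher, and a summed level of 1435 and 971 CPM. Its most abundant gene, Cd5l, had 65371 and 40760 counts. The 9 lymphocyte markers relative to this list were 1.39 times as high with erythrodiol as in control (1.28 to 1.504). For neutrophils the median was -0.87, with 8 of 12 at least 1.5-fold lower, 0 higher, and 23.6 and 15.3 CPM, and the lymphocyte markers were 1.45 times as high relative to them (1.31 to 1.60). The most abundant neutrophil gene, Csf3r, had 1156 and 1185 counts, so that the lower sum came from other genes of this list. Among them were S100a9 (702 and 329 counts) and S100a8 (411 and 183), named after their values were seen. Red cell and platelet genes had a median of -0.68, 5 of 9 lower and 0 higher, with 1269 and 933 CPM and Hbb-bs at 55625 and 34312 counts, and the markers relative to them were at 1.28 (1.18 to 1.38). For bile duct genes the median was -0.58, 3 of 6 were lower and 0 higher, the sums were 117 and 79.3 CPM, and the relative value was 1.39 (1.27 to 1.51). Spp1, at 12503 and 8363 counts, made up most of the 14363 and 9887 counts of this list, so this value rests mainly on 1 gene. Relative to genes of like length, among genes with at least 100 counts, the list medians were -0.54 for Kupffer cells and -0.82 for neutrophils. They were -0.35 for red cells and platelets and -0.63 for bile duct. Of the short globin genes, Hba-a1 was at 0.029, Hba-a2 at 0.0085, Hbb-bs at -0.38 and Hbb-bt at -0.69 on that scale.

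For the remaining cells of the liver the same relative values were nearer to 1. Dendritic cell genes, with a median of -0.075, 0 of 10 past 1.5-fold and Cd74 at 24590 and 23854 counts, gave a relative value of 0.988 (0.911 to 1.07). Stellate cell genes, with a median of 0.020, 0 of 8 and Dcn at 32935 and 29753 counts, gave 0.981 (0.905 to 1.06). Endothelial genes, with a median of 0.016, 0 of 8 and Stab2 at 7173 and 8173 counts, gave 0.915 (0.844 to 0.993), and hepatocyte genes, with a median of 0.17 and 1 of 10 lower, gave 0.945 (0.873 to 1.02). Relative to the list of all leukocytes the markers were at 0.982 (0.906 to 1.06), and relative to Ptprc alone at 1.13 (1.03 to 1.24). Most counts of the leukocyte list were of Lcp1 (15890 and 19515) and Laptm5 (10144 and 9658), while 9 of its 12 genes had a log2 ratio below 0. The value for the list of helper and regulatory T cells is not reported here. For the other lymphocyte lists the values were 0.964 (0.878 to 1.06) for T cell receptor signalling, 0.925 (0.846 to 1.01) for the B lineage, 1.04 (0.947 to 1.15) for NK and cytotoxic genes, 0.949 (0.874 to 1.03) for homing and 0.883 (0.815 to 0.957) for plasma cells. Most counts of the plasma cell list were of Xbp1 and Sdc1, which hepatocytes also make, so the last value does not describe plasma cells alone. Of 27 such ratios within a group, 9 had an interval that left out 1, without adjustment for their number. The part of blood or of these other cells in the lymphocyte values was not tested.

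**Figure D4:**
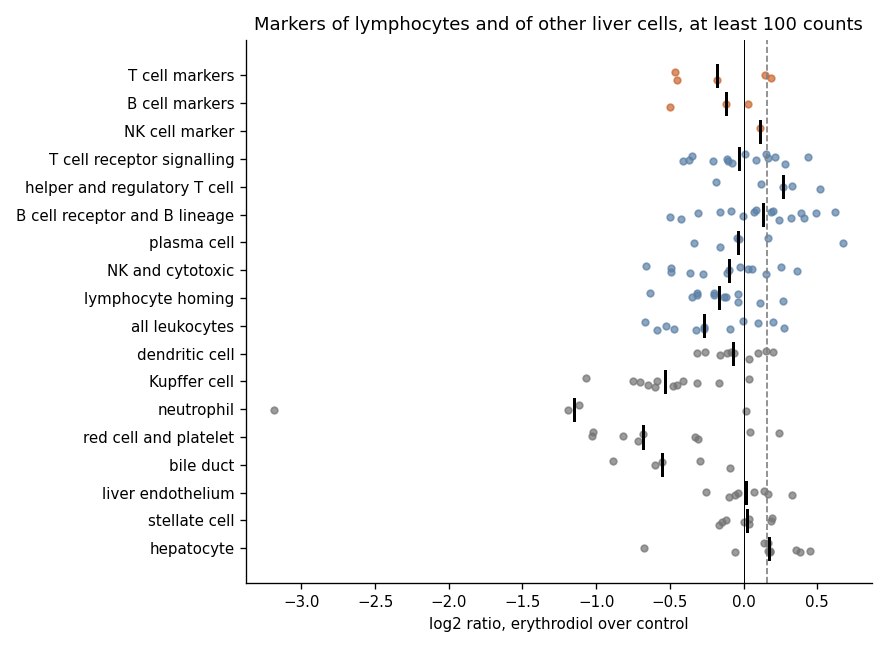
log2 ratio of erythrodiol over control (x axis) for each gene with at least 100 counts, by list of marker genes (y axis), with the lymphocyte markers at the top, other lymphocyte and leukocyte genes below them and other liver cells at the bottom. Short black bars are medians and the dashed line is the median of all genes at that depth, 0.16. The lymphocyte markers lie between -0.50 and 0.18, while single genes of several lists lie lower, among them Cd5l of Kupffer cells at -0.70, Hbb-bs of red cells at -0.72 and Cd53 of all leukocytes at -0.67.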

How the data were processed

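The authors deposited an expected count per gene for each group, made, per the study's methods and processing notes, by mapping clean reads with Bowtie2 to reference and new coding transcripts and estimating with RSEM, and summed over the 7 libraries of the group. The authors also deposited the number of clean reads, as counts, and the percent mapped to genes for each library. New transcripts came from HISAT, StringTie and Cuffcompare of the Cufflinks tools. The deposited log2 ratios, p-values and q-values of the authors were not used. Splicing, SNP and summary tables were not used here either.

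Counts were divided by the group total. Ratios carry exact (Clopper-Pearson) and levels exact Poisson intervals at 95% on rounded counts, covering counting error only. A test across genes needs libraries as replicates and was not made, since the gene table holds 2 pooled columns. Genes above 0 in both groups (16473) entered ratios. Like length means the 501 genes nearest in length with at least 100 counts. The markers and lists were chosen with earlier results of these data known. Beside the 9 markers, the rule named the 3 genes of most counts of each lymphocyte list, up to 2 of highest and 2 of lowest log2 ratio with at least 100 counts, the top gene of each other list, Ptprc and Apoe. One gene that the rule named is not reported here. Intervals and length correction were tried on simulated Poisson counts with an added length trend. These held no spread between libraries, so this checked the calculation and not how well the intervals suit these data. Alternatives were 5 other scalings, a pseudocount of 1, minimum counts of 10 and, added after seeing the data, 100, a 2-fold limit, medians and leaving out Cd4 and Cd8a. Protein sequences were not used here. Calculations used scipy 1.17.1, pandas 2.3.3 and numpy 2.4.6 under Python 3.11.15, with figures from matplotlib 3.10.9. Gene positions are RefSeq on GRCm38.p6, and exons were compared with GENCODE.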

Additional observations from a re-analysis of the deposited data

Results flagged for a closer look

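The share of clean reads mapped to genes was 64.3% in control replicate 3, against 74.4% in the next lowest and 81.4% in the highest control library. This library stood apart from the others of its group by Dixon's test (gap over range 0.588, limit 0.568), which flags about 5% of groups by chance. The test was also run on clean reads and on the share of the group sum, in both groups, and flagged no library there. The 5% holds for each run and not for all of them together. The part of control replicate 3 in the summed counts of the lymphocyte markers cannot be read from values pooled over the group.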

How the results depend on the processing

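No paired analysis was possible because the gene table holds 1 pooled column per group, and for the same reason no library could be left out. All 54 alternative values of single markers stayed within the counting interval of the reported value. The shifts common to all genes were at most 0.16 in log2, less than the reach of these intervals, so that this outcome was largely fixed in advance. The log2 ratio of the T cell markers went from -0.10 to -0.28 without Cd4 and Cd8a. Scaled to the median gene, that of all 9 markers went from -0.090 to -0.25, the intervals of the T cell, B cell and all markers then left out 0, and the number past 1.5-fold went from 0 to 3. It was 1 relative to genes of like length, where 1 in place of 2 counting intervals left out 1. At a 2-fold limit it was 0. Relative to genes of like length, the log2 ratios of the summed counts were -0.18 for T cell markers, -0.14 for B cell markers and -0.11 for all 9. Each of these lay within the interval of the sum on the scale of group totals. With the intervals shifted alike, however, that of the T cell markers just left out 0, while those of the B cell markers and of all 9 held it. Among all genes with at least 100 counts, the share of higher genes among those past 1.5-fold went from 44.8% to 12.3% with the median gene as zero.

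The list medians moved in the same way. Scaled to the median gene they were -0.075 for T cell receptor signalling, 0.0097 for helper and regulatory T cells, 0.041 for the B lineage, -0.20 for plasma cells, -0.27 for NK and cytotoxic genes, -0.33 for homing and -0.43 for all leukocytes. Relative to genes of like length they were 0.063 for the B lineage, -0.29 for plasma cells and -0.24 for homing. With at least 100 counts, chosen after seeing the data, they were -0.034 for T cell receptor signalling, 0.27 for helper and regulatory T cells and 0.13 for the B lineage. Depth leaves wide intervals, for Cd3e from 0.790 to 1.64, and the spread between libraries is not in them.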
